A study of Mus musculus with 12 samples.

Results

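Nectins, their cytoplasmic linker afadin and the related cell adhesion molecules (CADMs) were followed as 8 genes in mouse testis: Nectin1, Nectin2, Nectin3, Afdn (afadin), Cadm1, Cadm2, Cadm3 and Cadm4. They were picked out by gene symbol, and all 8 were found among the 20718 genes of the deposited table. RNA sequencing of total RNA from F0 testes gave 12 libraries, 3 in each of 4 groups, from mice whose strain is labelled IRC. In the OV group the testes received a virus that overexpresses lncRNA8276, and in the KD group a virus that inhibits it. The other groups are labelled 5NC and 3NC, abbreviations that are not spelled out; they were used as virus controls of OV and of KD, which is inferred from the order of the groups in the design statement. The ages of the mice, and the cell types that the virus reached, were not given. Nor is it stated that libraries of a group came from separate animals; the p-values therefore reflect only how these libraries scatter, which may be technical. Libraries held 15448442 to 16355720 reads.

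Nectins are immunoglobulin-like receptors that bind nectins on a neighbouring cell, often of another kind, and afadin ties their tails to actin. In the testis, Nectin2 on Sertoli cells and Nectin3 on spermatids meet at the apical ectoplasmic specialization, the actin-rich junction that holds elongating spermatids, and male mice without either gene are infertile. CADMs are close relatives that bind each other and, inside the cell, band 4.1 and MAGUK scaffold proteins; Cadm1 is the best known of them in spermatogenic cells, and its loss also causes male infertility in mice. These libraries are of whole testis, so fewer cells of a type and less RNA per cell cannot be told apart.

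The genes lie on 5 chromosomes (GRCm38, GENCODE M21 annotation). Nectin2 spans chr7:19716644-19750483 on the minus strand and Nectin3 chr16:46387706-46498525 on the minus strand. Nectin1 spans chr9:43743984-43807461 and Cadm1 chr9:47530173-47857637, both on the plus strand and 3.72 Mb apart. Afdn spans chr17:13760539-13906150 on the plus strand. Cadm2, at 965 kb the longest of the genes, spans chr16:66655421-67620908 on the minus strand. Cadm3 spans chr1:173333258-173367695 on the minus strand and Cadm4 chr7:24482023-24504539 on the plus strand. Whether the reads were counted by strand is not known, and some exons are shared with other genes. Afdn shares 221 of its 10223 exonic bases with Tcte2 on the opposite strand, a gene with a mean of 1554 reads per library, so reads in that stretch may belong to either gene. Nectin2 shares 135 of 3494 exonic bases with the antisense gene Gm20512, Cadm2 256 of 9809 with the antisense gene 1700010K23Rik, and Cadm3 361 of 7248 with Ackr1 on its own strand.

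The promoters of Nectin2 and Nectin3 are shown because these genes form the Sertoli-spermatid pair. Each sequence is the 250 bases before the transcription start, 5′ to 3′ on the gene's strand, from RefSeq on GRCm38.p6; capitals mark GC boxes, the letters GGGCGG on either strand.
Nectin2 (chr7:19749574-19749823, minus strand): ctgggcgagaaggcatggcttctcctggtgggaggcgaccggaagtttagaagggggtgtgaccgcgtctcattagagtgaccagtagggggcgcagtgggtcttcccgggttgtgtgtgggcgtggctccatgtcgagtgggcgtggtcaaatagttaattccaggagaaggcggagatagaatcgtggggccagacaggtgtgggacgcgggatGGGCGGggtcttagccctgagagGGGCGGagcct
Nectin3 (chr16:46496968-46497217, minus strand): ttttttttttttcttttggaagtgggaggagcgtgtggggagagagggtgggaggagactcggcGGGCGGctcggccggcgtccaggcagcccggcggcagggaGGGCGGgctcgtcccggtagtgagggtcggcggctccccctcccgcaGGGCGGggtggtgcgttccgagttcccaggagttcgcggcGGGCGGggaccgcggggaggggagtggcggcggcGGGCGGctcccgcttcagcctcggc
The Nectin2 window holds 2 GC boxes and 16 CpG sites at 62.0% GC, and the Nectin3 window holds 5 GC boxes and 30 CpG sites at 73.2% GC. Among 32851 mouse promoters of the same length, 32.7% hold a GC box, and the medians are 6 CpG sites and 52.4% GC. On either strand, neither window holds CCAAT (33.8% of all promoters), TATAAA (12.4%), TGACG (17.8%) or CACGTG (6.02%). Both windows lie inside the annotated span of their gene, since each gene also has a transcript that starts further upstream, and neither overlaps an annotated exon of its gene. Of the 8 genes, 6 had a promoter in the RefSeq table.

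Nectin3 was by far the most abundant of the 8 on a scale per gene length. Its mean over the 12 libraries was 184 FPKM (reads scaled for transcript length and library size), which ranked 579 of 20718 genes. Nectin2 followed at 26.4 FPKM and Cadm1 at 21.3 FPKM. Afdn stood at 8.54 FPKM, Nectin1 at 1.05 FPKM, Cadm2 at 0.959 FPKM, Cadm4 at 0.678 FPKM and Cadm3 at 0.0567 FPKM. Nectin3 exceeded Nectin2 in every library, with means 6.97-fold apart and no overlap of their ranges. Nectin2 and Cadm1 had overlapping ranges, and Nectin2 was the higher in 10 of 12 libraries. Nectin1 and Cadm2 overlapped as well (Nectin1 higher in 9 of 12), and Cadm2 lay above Cadm4 in 12 of 12 libraries although their ranges overlapped. Within the 3 nectins, Nectin3 made up 82.7% to 91.6% of the summed FPKM of a library. Within the 4 CADMs, Cadm1 made up 91.7% to 94.2%.

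**Figure D1:**
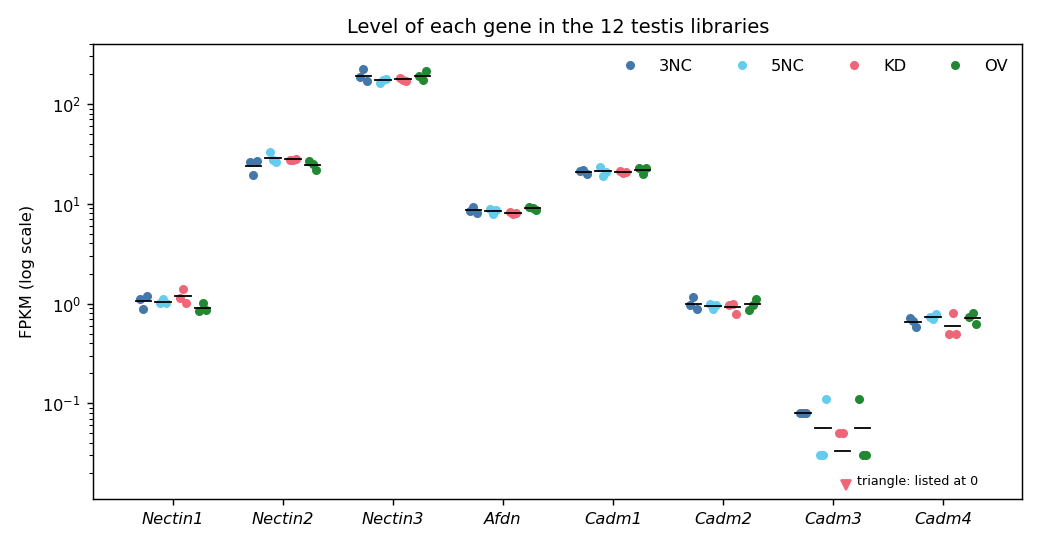
Level of each gene in FPKM (log scale) in 12 mouse testis libraries; points are libraries, coloured by group, short lines are group means of 3 libraries, and the triangle stands for a library listed at 0. Nectin3 sits above every other gene, with a mean of 184 FPKM, and Cadm3 below every other, at 0.0567 FPKM; for each of the 7 others, the highest and lowest group means differ 1.06- to 1.3-fold.

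Nectin3, the spermatid nectin, is given here in CPM (reads scaled to a common library size, with TMM factors), the scale on which groups were compared. It measured 563, 667 and 546 CPM in 3NC replicates 1 to 3 and 469, 538 and 547 CPM in 5NC. In KD it measured 558, 543 and 537 CPM, and in OV 575, 547 and 655 CPM. One 3NC library and one OV library were the highest of the 12, one 5NC library was the lowest, and all pairs of groups overlapped. Group means ± SD (n = 3) were 592 ± 65.4 CPM in 3NC, 518 ± 42.6 in 5NC, 546 ± 11 in KD and 592 ± 56.5 in OV.

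Nectin2, the Sertoli cell nectin, was at 60.6, 44.4 and 61.4 CPM in 3NC replicates 1 to 3 and at 73.2, 62.8 and 59.1 CPM in 5NC. It was at 62.3, 62.7 and 64.9 CPM in KD and at 60.8, 56.3 and 49.8 CPM in OV. The libraries with the most Nectin3, 3NC replicate 2 and OV replicate 3, had the least Nectin2, and the library with the least Nectin3, 5NC replicate 1, had the most Nectin2. All 3 KD libraries lay above all 3NC libraries, by a margin of 61.4 to 62.3 CPM at its narrowest. Group means ± SD were 55.5 ± 9.58 CPM in 3NC, 65.0 ± 7.34 in 5NC, 63.3 ± 1.42 in KD and 55.7 ± 5.54 in OV.

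Nectin1, which pairs with Nectin3 at other epithelial junctions, had 65 to 108 reads per library. It measured 5.53, 4.32 and 5.97 CPM in 3NC, 4.70, 5.59 and 5.00 CPM in 5NC, 5.67, 7.0 and 5.04 CPM in KD, and 4.17, 5.01 and 4.31 CPM in OV, each in the order of replicates 1 to 3. KD replicate 2 was the highest library and OV replicate 1 the lowest, and every pair of compared groups overlapped.

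Afdn, the actin linker of all nectins, varied little. It was at 66.5, 72.8 and 62.8 CPM in 3NC replicates 1 to 3 and at 64.2, 62.1 and 67.1 CPM in 5NC. In KD it was at 64.2, 61.9 and 63.2 CPM and in OV at 72.3, 71.0 and 67.3 CPM. The lowest OV library, at 67.3 CPM, was just above the highest 5NC library, at 67.1 CPM, so these groups did not overlap. The coefficient of variation over the 12 libraries was 5.92%, against 12.1% for Nectin2 and 9.42% for Nectin3.

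Cadm1 varied as little as Afdn, with a coefficient of variation of 5.28% in CPM over the 12 libraries. It measured 92.6, 93.7 and 86.8 CPM in 3NC replicates 1 to 3, 96.2, 83.7 and 90.6 CPM in 5NC, 93.3, 89.1 and 90.3 CPM in KD, and 98.8, 87.1 and 99.6 CPM in OV. All groups overlapped, and the highest and lowest group means differed 1.06-fold.

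The other CADMs were near or below 1 FPKM. Cadm2, a CADM best known from neurons, measured 9.25, 10.9 and 8.60 CPM in 3NC, 8.79, 8.54 and 9.16 in 5NC, 9.30, 9.59 and 7.59 in KD and 8.27, 9.21 and 10.5 in OV. All groups overlapped, with 3NC replicate 2 the highest. Cadm4, a CADM of epithelia and Schwann cells, had 16 to 26 reads per library and lay between 1.02 and 1.63 CPM in single libraries, so its differences were poorly resolved. Cadm3, a neural CADM, had 4, 4 and 4 reads in 3NC, 1, 1 and 4 in 5NC, 2, 3 and 0 in KD and 4, 2 and 1 in OV. Its total of 30 reads in 188897070 is 0.159 CPM, with an exact Poisson interval (95%, counting error only) of 0.107 to 0.227. Cadm3 did not pass the filter on low counts and was not tested; group sums were 12, 6, 5 and 7 reads in 3NC, 5NC, KD and OV, with overlapping intervals.

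The comparison of OV with 5NC asks what overexpression of the lncRNA does to these genes. None of the 7 genes tested was called by edgeR's quasi-likelihood test at an adjusted p under 0.05; among all 16320 genes tested, 0% were called as well, 1697 had an unadjusted p under 0.05, and DESeq2 called 45 genes, none of them a nectin, afadin or CADM gene. Nectin3 had a log2 fold change of 0.19 ± 0.0928 (SE; 95% interval −0.01 to 0.39; edgeR adjusted p = 0.485). For Nectin2 it was −0.22 ± 0.121 (−0.48 to 0.04; edgeR adjusted p = 0.515). Afdn, at 0.12 ± 0.0742, was the 1 gene of the 7 whose OV and 5NC libraries did not overlap (edgeR adjusted p = 0.546), a separation that 15.2% of all genes tested also had. Cadm1 and Cadm2 were both at 0.08, with intervals of −0.09 to 0.24 and −0.23 to 0.38. Nectin1 was at −0.18 (−0.56 to 0.20) and Cadm4 at −0.03 (−0.58 to 0.52). The median of the 7 log2 fold changes was 0.08, beside 0.00 over all genes. When OV and 5NC were fitted alone with the replicate number as a block, 215 genes were called, and none of the 7.

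KD was set against 3NC to ask what inhibition of the lncRNA does. Again 0 of 7 genes were called, beside 0.178% of all genes (29 of 16320). Nectin2 had a log2 fold change of 0.19 ± 0.122 (95% interval −0.07 to 0.45; edgeR adjusted p = 0.764), and it was the 1 gene of the 7 whose libraries did not overlap, as in 16.5% of all genes. Nectin3 was at −0.12 ± 0.0928 (−0.32 to 0.08; edgeR adjusted p = 0.78). Nectin1 was at 0.16 (−0.21 to 0.54), Afdn at −0.09 (−0.25 to 0.06), Cadm2 at −0.12 (−0.42 to 0.19) and Cadm4 at −0.13 (−0.69 to 0.44). Cadm1 was the nearest to 0, at −0.003, with an interval from −0.17 to 0.16. The median over the 7 was −0.09, beside 0.00 over all genes.

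The control groups were also compared with each other. Between 5NC and 3NC, 0 of 7 genes were called, beside 0.362% of all genes, and 0 of 7 had libraries that did not overlap, beside 16.9%. Nectin2 was at 0.23 ± 0.121 (5NC over 3NC, log2; edgeR adjusted p = 0.449) and Nectin3 at −0.19 ± 0.0928 (edgeR adjusted p = 0.42). In OV against 5NC, which shares the 5NC libraries, the same genes were at −0.22 and 0.19. The remaining log2 fold changes were −0.05 for Nectin1, −0.06 for Afdn, −0.01 for Cadm1, −0.12 for Cadm2 and 0.15 for Cadm4. In a test for any difference among the 4 groups, 0 of 7 genes and 0.337% of all genes were called, and the smallest adjusted p of the 7 from edgeR was 0.646, for Nectin3.

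The OV and KD effects were then tested for a difference from each other. The difference, OV effect minus KD effect, was −0.41 ± 0.172 for Nectin2 (95% interval −0.78 to −0.05; unadjusted p = 0.0299 and adjusted p = 0.29 with edgeR) and 0.31 ± 0.131 for Nectin3 (0.03 to 0.59; unadjusted p = 0.0332 and adjusted p = 0.295 with edgeR). For Afdn it was 0.22 (−0.01 to 0.44; edgeR adjusted p = 0.329) and for Nectin1 −0.34 (−0.88 to 0.19; edgeR adjusted p = 0.482). None of the 7 passed, beside 0.0613% of all genes, and 15.7% of all genes had an unadjusted p under 0.05. With OV set against 3NC and KD against 5NC instead, the difference for Nectin2 was 0.04 and that for Nectin3 −0.08, so both changed sign with the choice of control. Without 3NC replicate 2 and OV replicate 3, the difference was −0.21 for Nectin2 and 0.13 for Nectin3.

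**Figure D2:**
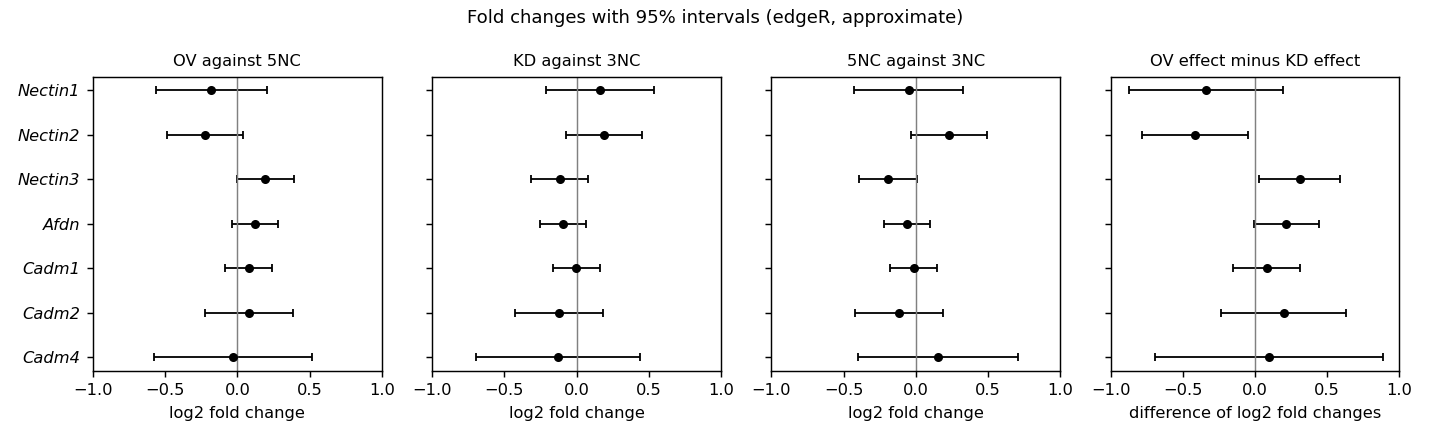
Log2 fold changes of the 7 genes tested (points) with approximate 95% intervals (bars) from edgeR, for OV against 5NC, KD against 3NC, 5NC against 3NC and the difference of the OV and KD effects. Every interval in the first 3 panels spans 0; in the last, those of Nectin2 (−0.78 to −0.05) and Nectin3 (0.03 to 0.59) do not, and neither gene passed after adjustment (adjusted p of 0.29 and 0.295).

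Across libraries, the genes were compared in all 21 pairs of the 7 tested, as correlations of log2 CPM with permutation p-values adjusted over the 21 pairs. Of the pairs, 10 were positive and 11 negative, and 3 had an adjusted p under 0.05, all negative. Nectin2 and Nectin3 had a Pearson r of −0.94 (n = 12, permutation p = 0.00029, adjusted p = 0.00609) and a Spearman rho of −0.86 (permutation adjusted p = 0.0102). The r was −0.82 without 3NC replicate 2 and OV replicate 3, the libraries farthest from the median of Nectin2, and −0.92 for deviations from the group means. Without 5NC replicate 1 as well, it was −0.25 over the 9 libraries left, so the size of r depended on these 3 libraries. They were chosen after the values were seen, as the extremes of both genes. Leaving them out narrows the range of both genes, so the lower r does not settle whether the other libraries are related. Of the 16318 other genes, 187 (1.15%) correlated with Nectin3 at least as strongly in either direction, and 63 (0.386%) with Nectin2.

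**Figure D3:**
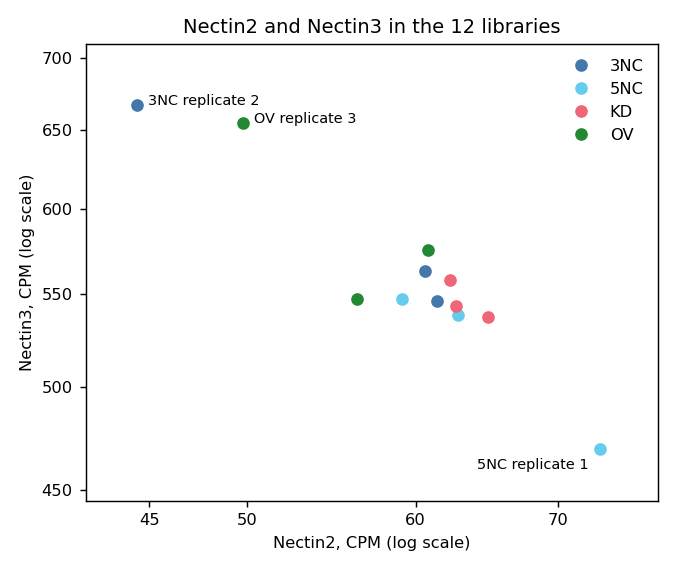
Nectin3 against Nectin2, both in CPM on log axes, in the 12 libraries, coloured by group. 3NC replicate 2 and OV replicate 3 lie at the top left and 5NC replicate 1 at the bottom right; r is −0.94 over 12 libraries and −0.25 over the 9 others.

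Nectin1 and Afdn were also inversely related, with r = −0.75 (n = 12, permutation p adjusted over 21 pairs = 0.0414) and rho = −0.85 (permutation adjusted p = 0.0102). Here r was −0.64 without the libraries farthest from the median of Nectin1 (KD replicate 2 and OV replicate 1), −0.63 for deviations from the group means and −0.79 without the 3 libraries that stood apart in Nectin2 and Nectin3. Of all other genes, 2.02% correlated with Nectin1 at least as strongly, and 1.95% with Afdn. Nectin2 and Cadm2 had r = −0.76 (n = 12, permutation p adjusted over 21 pairs = 0.0414) and rho = −0.59 (permutation adjusted p = 0.14). Without 3NC replicate 2 and OV replicate 3, the lowest in Nectin2, r was −0.28, so its size depended on those libraries. Of all other genes, 15.7% were as strongly related to Nectin2 and 4.25% to Cadm2. By Spearman's rho alone, Nectin1 with Cadm1 (−0.75), Nectin2 with Afdn (−0.76) and Nectin3 with Afdn (0.73) also had a permutation adjusted p under 0.05, at 0.0363, 0.0363 and 0.0399. The highest Pearson r among the pairs was 0.67, for Nectin3 and Cadm2.

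**Figure D4:**
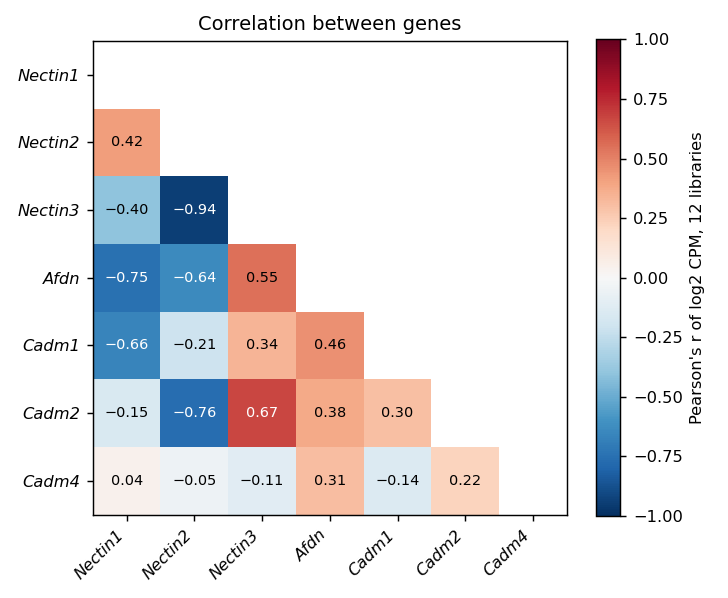
Pearson's r of log2 CPM over the 12 libraries for the 21 pairs of genes tested; colour and number give r. The strongest value is −0.94, for Nectin2 and Nectin3, and 11 of the 21 pairs are negative.

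The balance of Nectin3 to Nectin2 followed from both. The ratio of their FPKM values ranged from 4.91 in 5NC replicate 1 to 11.4 in 3NC replicate 2, with a median of 6.71. On the log2 scale it was 2.97 ± 0.261 (SD, n = 3) in OV, 2.58 ± 0.253 in 5NC, 2.67 ± 0.0567 in KD and 3.01 ± 0.443 in 3NC. This ratio was chosen after the values were seen and is given without a test. OV minus 5NC was 0.39, and 0.24 without 3NC replicate 2 and OV replicate 3; KD minus 3NC was −0.34, and −0.09 without them. For the control groups, 5NC minus 3NC was −0.42, and −0.17 without those libraries. Without 5NC replicate 1 alone, OV minus 5NC was 0.25 and 5NC minus 3NC was −0.28.

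Cell type markers also varied between libraries. The 12 Sertoli cell markers were, in the mean of their log2 CPM, 0.47 above the 12-library mean in 5NC replicate 1, and at −0.18 and −0.11 relative to it in 3NC replicate 2 and OV replicate 3; 3NC replicate 3, which did not stand apart, was at −0.11 as well. Other somatic markers were also high in 5NC replicate 1, at 0.52 for 8 Leydig cell markers, 0.27 for 8 peritubular and endothelial markers and 0.31 for 8 macrophage and leukocyte markers. The macrophage and leukocyte markers were higher still in OV replicates 1 and 2, at 1.31 and 0.45. Of the germ cell markers, the 9 spermatogonial ones tested were at 0.20 in 5NC replicate 1. The summed level of the 12 Sertoli cell markers ranged from 920 to 1201 CPM in 3NC, 1175 to 1742 in 5NC, 1176 to 1216 in KD and 1006 to 1190 in OV. Most of these sums was Clu, with group means of 608 CPM in 3NC, 822 in 5NC, 691 in KD and 623 in OV. In OV against 5NC, 11 of 12 Sertoli cell markers had negative log2 fold changes (median −0.17). In 5NC against 3NC, 12 of 12 had positive ones (median 0.22). Over all genes tested, log2 fold changes were positive in 49.7% in OV against 5NC and 51.9% in 5NC against 3NC. In these comparisons 0 of 12 Sertoli cell markers were called, beside 0% and 0.362% of all genes. All 8 Leydig cell markers had negative log2 fold changes in OV against 5NC (median −0.49), with 0 called and 4 at an unadjusted edgeR p under 0.05. In that comparison 10.4% of all genes had such a p. All 8 macrophage and leukocyte markers were positive there (median 0.78), with 0 called and 6 at such a p. Of 8 peritubular and endothelial markers, 6 were negative (median −0.34), with 0 called and 4 at such a p. The 10 spermatid markers stood at −0.20, −0.21 and −0.11 in 5NC replicate 1, 3NC replicate 2 and OV replicate 3. Their sums ranged from 18103 to 23347 CPM in 3NC, 18946 to 23936 in 5NC, 21898 to 24231 in KD and 19603 to 21426 in OV. No Sertoli cell or spermatid marker was at 0 reads. Macrophage and leukocyte markers summed to 79.0 to 178 CPM in OV against 53.7 to 85.7 in 5NC. Epididymis and fat markers summed to 27.3 to 140 CPM in 5NC against 17.0 to 21.8 in 3NC. In the mean of their log2 CPM, they were 2.37 and 2.33 above the 12-library mean in 5NC replicates 2 and 3. In 5NC replicate 1 they were at 0.58, beside 0.75 in OV replicate 2 and 0.54 in KD replicate 2. Of the 6 tested, 5 were higher and 1 lower in 5NC against 3NC (median log2 fold change 2.63). There, edgeR called 2 as higher, beside 0.362% of all genes called. Crisp1, of the epididymis, went from a group mean of 2.48 CPM in 3NC to 64.4 in 5NC. The fat markers Plin1, Adipoq and Fabp4 went from 0.828 to 2.3, from 12.3 to 11.3 and from 2.18 to 4.61, and the libraries of Adipoq and Fabp4 overlapped. In OV against 5NC, 5 of 6 were lower (median −2.16), with 0 called. The part of cell composition in the Nectin2 and Nectin3 values was not tested.

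The 3 libraries that stood apart in Nectin2 and Nectin3 also differed most from the others of their own group over all genes, by the mean chi-square per gene between the counts of a pair of libraries. For 3NC replicate 2 it was 18.7 and 21.3, against 3.86 between the other 3NC libraries. For OV replicate 3 it was 15.8 and 18.9, against 5.77, and for 5NC replicate 1 it was 13.8 and 10.2, against 5.5. Without 3NC replicate 2 and OV replicate 3, 0 of 7 genes were called in any comparison. The log2 fold change of Nectin3 was then 0.11 in OV against 5NC and −0.02 in KD against 3NC, and that of Nectin2 −0.16 and 0.05. Without 5NC replicate 1 alone, OV against 5NC was 0.12 for Nectin3 and −0.13 for Nectin2.

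For each gene tested, the 2 genes with the most similar pattern over the 12 libraries were identified by Pearson r of log2 CPM among 15206 genes with a mean of at least 1 CPM. For Nectin3 these were Tax1bp1, an autophagy receptor, and Cab39l, both at r = 0.99. Nectin2 was most like Arf5, a small GTPase of vesicle traffic (0.98), and Plxna1, a semaphorin receptor (0.97). Nectin1 was most like Tmem175 (0.92) and the forkhead factor Foxs1 (0.91), and Afdn most like the histamine receptor Hrh4 (0.92) and LOC100044068 (0.91). Cadm1 was most like the protease gene Mbtps2 (0.92) and Atrnl1 (0.91), Cadm2 most like the phosphodiesterase Pde4b (0.91) and Relch (0.91), and Cadm4 most like Bmp2k (0.86) and Trpm3 (0.84). These are the best of many genes over 12 libraries, and are given as a description.

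Of 6 other nectin and nectin-like receptors listed, 4 passed the filter, and 0 were called in any comparison, beside 0% to 0.362% of all genes. The median log2 fold change of these receptors was −0.17 in OV against 5NC and 0.06 in KD against 3NC. Nectin4, the epithelial partner of Nectin1, was at 3.09 ± 0.655 CPM in 3NC, 4.56 ± 1.33 in 5NC, 4.22 ± 1.02 in KD and 3.66 ± 0.568 in OV, with log2 fold changes of −0.32 in OV and 0.45 in KD. The leukocyte receptor Cd96 was at 0.24 in OV (unadjusted p = 0.0454, adjusted p = 0.468, edgeR) and −0.11 in KD. Its group means were 25.6 CPM in 3NC, 21.0 in 5NC, 23.7 in KD and 24.7 in OV. Between 5NC and 3NC, Cd96 was at −0.29 (unadjusted p = 0.0178, adjusted p = 0.358, edgeR) and Nectin4 at 0.56 (unadjusted p = 0.0444, adjusted p = 0.41, edgeR). Pvr, the poliovirus receptor homolog, was at −0.29 in KD, and Crtam, a leukocyte receptor that binds Cadm1, at −1.23 ± 1.14 in OV, an SE nearly as large as the value.

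Proteins that tie nectins and cadherins to actin were listed as 14 afadin and catenin linkers, all tested. None was called in any comparison, beside 0% to 0.362% of all genes. In OV against 5NC, 10 of 14 had positive log2 fold changes (median 0.07), and in KD against 3NC 9 of 14 had negative ones (median −0.06). Over all genes tested, log2 fold changes were positive in 49.7% and 49.5%, with medians of 0.00 in both. Lmo7, a LIM-domain protein that binds afadin, was at 0.64 ± 0.169 in OV (unadjusted p = 0.00189, adjusted p = 0.404, edgeR), from 13.4 ± 0.837 CPM in 5NC to 21.0 ± 6.3 CPM in OV, where single libraries ranged from 15.4 to 27.8. Its level was 17.4 ± 1.29 CPM in 3NC and 17.8 ± 1.51 in KD, and 5NC against 3NC was at −0.38 (unadjusted p = 0.0434, adjusted p = 0.409, edgeR). Plekha7, a p120-catenin partner, was at −0.42 (edgeR adjusted p = 0.441) and the scaffold Iqgap1 at 0.12. In KD, the small GTPase Rap1b was at −0.24 and vinculin (Vcl) at −0.16.

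The 12 cytoplasmic partners of CADMs, band 4.1 and MAGUK proteins with the exchange factors Tiam1 and Farp1, were all tested. None was called in any comparison, beside 0% to 0.362% of all genes. The median log2 fold change of the partners was 0.06 in OV against 5NC and −0.06 in KD against 3NC. Epb41l3 (band 4.1B) was at 0.15 in OV (edgeR adjusted p = 0.486), Mpp6 at 0.17 and Mpp3 at −0.38. The MAGUK scaffold Dlg1 was at −0.25 in KD (unadjusted p = 0.0238, adjusted p = 0.764, edgeR), Epb41 at 0.17 and Mpp2 at −0.35.

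Other components of the apical ectoplasmic specialization were 11 genes, all tested, with medians of −0.13 in OV and −0.12 in KD. None was called in any comparison, beside 0% to 0.362% of all genes. Cdh2 (N-cadherin, the cadherin of Sertoli-germ cell junctions) was at −0.41 ± 0.0929 in KD against 3NC (unadjusted p = 0.000547, adjusted p = 0.15, edgeR). It ranged from 68.8 to 73.6 CPM in 3NC, 50.2 to 60.2 in KD, 48.7 to 59.7 in 5NC and 54.5 to 57.7 in OV, so that 3NC lay above every other group. Over all genes tested, libraries did not overlap for 16.5% in KD against 3NC and for 16.9% in 5NC against 3NC. Between 5NC and 3NC the log2 fold change of Cdh2 was −0.38, close to that of KD, and both comparisons share the 3NC libraries. Lamc3, the laminin gamma-3 chain of the spermatid side, was at −0.62 ± 0.219 in OV (edgeR adjusted p = 0.419). It was at 15 ± 1.16 CPM in OV, 23.0 ± 9.11 in 5NC, where libraries ranged from 14.8 to 32.8, and 16 ± 2.82 in 3NC, and 5NC against 3NC was at 0.52 (unadjusted p = 0.0322, adjusted p = 0.395, edgeR). The actin bundling proteins Espn and Eps8 were at −0.31 and −0.19 in OV and at 0.31 and −0.32 in KD. Between 5NC and 3NC, Espn was at 0.44 (unadjusted p = 0.028, adjusted p = 0.391, edgeR) and Eps8 at 0.07. Group means of Espn were 59.6 CPM in 3NC, 80.8 in 5NC, 73.7 in KD and 65.1 in OV.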

How the data were processed

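Testis RNA of 12 libraries was analysed. The deposited table gives, per the file headers, read counts that are expected counts, since only 88% are whole (tolerance 1e-06); they were rounded before testing. A further set of deposited values was taken as FPKM, a unit inferred here. For 5204 genes above 500 reads, each value divided by its count scaled inversely with library size (median deviation 0.282%). The build was mm10, per the submitters' processing notes; no source used here gives the aligner, counting program, annotation or strandedness. No row is named for the lncRNA, whose level was not analysed here. Another 18 per-sample columns match no library of the series and were not used.

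Testing used edgeR 4.0.16 under R 4.3.3 (quasi-likelihood, robust, TMM, 1 fit of 4 groups, filterByExpr with a minimum count of 10). This left 16320 genes, and p-values were adjusted over all of them (Benjamini-Hochberg). SE was computed from the fold change and the F statistic, so SE and 95% intervals are approximate. The fit was tested on simulated data (OV against 5NC, 16320 genes). There, 39 of 39 genes raised 2-fold and 35 of 45 lowered to 0.5-fold were recovered, with 5 false calls over all fold sizes. The simulation gave every gene the same spread between libraries and set no library apart, unlike the data. It therefore checks the fit and does not show which changes could be found in these libraries. Correlations used 100000 permutations (scipy 1.17.1) of log2 CPM, prior count 2, and of the pairs planned, 21 could be tested without Cadm3. Alternatives included DESeq2 1.42.0 and limma 3.58.1. Replicate numbers come from the sample titles. Same-numbered libraries of OV and 5NC deviated together (r of 0.16, 0.15 and 0.11), which met the limit set for pairing, and those of KD and 3NC did not (0.0079 to 0.056). The main fit was nevertheless unpaired for every comparison. With OV and 5NC fitted alone and the replicate number as a block, 215 genes were called instead of 0. The adjusted p of Nectin2 from edgeR was then 0.295, against 0.515 in the main fit.

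All 8 genes are named; of each list, genes called or else the 3 of smallest p in OV and in KD (1 is not reported here); and, for each gene tested, the 2 most similar genes. Genes and lists were chosen with earlier results of these data known.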

Additional observations from a re-analysis of the deposited data

How the results depend on the processing

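Nectins, afadin and CADMs were called in 0 of 117 counts over 25 alternative settings, and their smallest adjusted p was 0.19 (Nectin2, OV effect minus KD effect). Of 672 alternative log2 fold changes, 40 changed sign, all of values not called. The correlation of Nectin2 and Nectin3 went from −0.94 to −0.25 without 3 libraries, an alternative chosen after seeing the data.

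Counts over all genes did depend on the setting, in the order OV against 5NC, KD against 3NC, 5NC against 3NC, difference of effects and any group; the cause was not tested. DESeq2 called 45, 70, 151, 87 and 287 genes, and voom with sample weights 7, 106, 134, 53 and 245. limma on log2(FPKM + 1) called 32 in 5NC against 3NC, and with 0.1 as pseudocount 16 in KD, 31 in 5NC, 6 in the difference and 30 in any group. With the replicate block and the compared groups fitted alone, 215, 77 and 94 were called, and with the replicate block in the fit of all groups 0, 22, 50, 13 and 63. Against the other control group, OV gave 52, KD 8 and the difference 25; against both controls, OV and KD gave 3 each. Leaving out 1 library at a time gave 0 to 5, 10 to 34, 16 to 76, 4 to 23 and 28 to 126. Without 3NC replicate 2 and OV replicate 3, chosen after seeing the data, 36, 18 and 144 were called in OV, KD and any group. Depth limits Cadm4 (16 to 26 reads per library) and Cadm3 (0 to 4).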
